A study of Mus musculus with 18 samples.

Results

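The 9 genes followed here belong to the insulin-like growth factor (IGF) system and were measured in cultured mouse mammary fibroblasts. They are the ligand gene Igf1, the receptor genes Igf1r and Igf2r, and the binding protein genes Igfbp2, Igfbp3, Igfbp4, Igfbp5, Igfbp6 and Igfbp7. They were chosen by name and are 9 of the 55486 genes in the count table. All 9 passed the filter on low counts that left 14273 genes for testing. Across the 18 libraries their counts ran from 87 for Igfbp2 to 20783 for Igfbp4.

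Polyadenylated RNA was sequenced from normal fibroblasts (NFs) of the mammary gland, grown from pooled adult female mice of FVB/n background and sorted into CD26- and CD26+ cells, CD26 being the cell surface dipeptidyl peptidase whose gene is Dpp4. The cells received control conditioned medium or tumour conditioned medium (CM) for 7 days, giving 3 libraries of CD26- NFs in control medium (replicates 1 to 3), 6 of CD26- NFs in tumour CM (4 to 9), 3 of CD26+ NFs in control medium (10 to 12) and 6 of CD26+ NFs in tumour CM (13 to 18). Tumour CM came from 6 cell lines of WEPtn tumours, which arise in mice with Cre under the Wap promoter in mammary epithelium and stand for invasive lobular carcinoma. Within a cell type each CM library received the CM of another line, in the order 13-MCB-17, 10-SJK-221, 18-MCB-12, 13-MCB-44, 13-MCB-90 and 13-MCB-138, so the spread among CM replicates holds the differences between lines. The tumour lines were grown in a medium with added insulin, which binds the insulin receptor and, more weakly, the IGF1 receptor. Whether the CM used here, or the control medium, held insulin is not given in the sources used here, and its part in any result was not tested. The paper states in general that its experiments were repeated independently at least 3 times. The sources do not say whether the replicates of a group here came from separate cultures. The tests thus measure the spread between these samples, which may be technical for the control libraries.

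Library totals ran from 9725723 to 14585349 counts. The 8 fibroblast markers were all expressed, with a summed level of 9200 to 19200 CPM (counts scaled to the total of the library) in CD26- and 26000 to 52400 CPM in CD26+ libraries. Dpp4 itself was at or near 0 in control medium, with 0 to 0.171 CPM in the CD26- and 0 to 0.0809 CPM in the CD26+ libraries, so its RNA did not separate the labelled cell types there. In tumour CM it was 0.0776 to 0.881 CPM in CD26- and 0.715 to 7.8 CPM in CD26+ NFs. The paper reports from flow cytometry that CD26+ NFs rapidly lost CD26 once in culture. Although the cells were sorted as EpCAM-negative, all 7 epithelial markers were detected, Epcam at 224 to 243 CPM in the CD26- and 39.9 to 78.8 CPM in the CD26+ control libraries. Their summed level was 3750 to 4100 CPM in CD26- control, 2370 to 3840 CPM in CD26- CM, 625 to 1110 CPM in CD26+ control and 570 to 1370 CPM in CD26+ CM libraries. Pericyte markers summed to 160 to 173 CPM in CD26- control libraries and 56.9 to 109 CPM in the other 3 groups. The remaining marker sums were low and also did not overlap between the cell types, with 2.37 to 3.83 CPM in CD26- and 0.815 to 2.19 CPM in CD26+ libraries for immune markers, 3.76 to 8.77 and 1.77 to 3.49 CPM for endothelial markers, and, for adipocyte markers, 2.54 to 15.7 CPM in CD26+ libraries and less in every CD26- library. Fewer cells of a type and less RNA per cell cannot be told apart in such bulk samples.

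IGF1 is a secreted growth factor that signals through the receptor tyrosine kinase IGF1R, while IGF2R carries no kinase and takes up IGF2 and proteins tagged with mannose 6-phosphate for delivery to lysosomes. The binding proteins hold most IGF outside cells, keep it from the receptor or release it near the cell when proteases cut them. In the mammary gland, stromal fibroblasts are a known source of IGF1, and IGFBP5 is known from the regression of the gland after lactation.

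In the deposited table's GRCm38 coordinates, with strands from the GENCODE annotation of that build, Igf1 lies at chr10:87858265-87937042 on the plus strand, Igf1r at chr7:67952827-68233668 on the plus strand and Igf2r at chr17:12682406-12769664 on the minus strand. Igfbp2 (chr1:72824503-72852474, plus strand) and Igfbp5 (chr1:72857932-72874884, minus strand) share a stretch of chromosome 1. Igfbp3 (chr11:7206086-7213923, minus strand) and Igfbp4 (chr11:99041244-99054392, plus strand) are both on chromosome 11, far apart. Igfbp6 lies at chr15:102144362-102149511 on the plus strand and Igfbp7 at chr5:77349240-77408041 on the minus strand. All 9 are annotated as protein-coding genes.

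The binding proteins Igfbp3 and Igfbp4 moved in opposite directions in CD26+ NFs exposed to tumour CM, and their promoters are shown for that reason. Each window of 300 bases, from RefSeq on GRCm38.p6, reaches from upstream of the annotated start site to just inside the gene. The Igfbp3 window is chr11:7213874-7214173 on the minus strand and the Igfbp4 window is chr11:99040994-99041293 on the plus strand. Capitals mark a TATAAA or TATATA match.
Igfbp3: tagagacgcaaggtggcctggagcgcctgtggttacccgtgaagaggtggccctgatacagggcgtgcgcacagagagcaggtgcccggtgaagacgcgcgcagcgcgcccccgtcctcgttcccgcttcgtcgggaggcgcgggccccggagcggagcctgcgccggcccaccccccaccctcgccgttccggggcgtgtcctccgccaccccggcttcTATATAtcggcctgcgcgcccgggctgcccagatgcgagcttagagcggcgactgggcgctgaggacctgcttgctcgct
Igfbp4: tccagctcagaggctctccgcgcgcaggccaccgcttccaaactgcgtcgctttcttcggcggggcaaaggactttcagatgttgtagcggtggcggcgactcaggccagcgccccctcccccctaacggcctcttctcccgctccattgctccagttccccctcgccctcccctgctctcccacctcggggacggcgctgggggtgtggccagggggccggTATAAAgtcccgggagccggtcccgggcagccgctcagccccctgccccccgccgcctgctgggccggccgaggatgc
TATATA stands 30 to 25 bases before the Igfbp3 start and TATAAA 28 to 23 bases before the Igfbp4 start. Searched on both strands, TATAAA was present in 13.6% and TATATA in 5.67% of the 32851 mouse promoter windows of this length. TATAAA was found for 2 of the 9 genes (Igfbp4 and Igfbp6) and TATATA for 1 (Igfbp3). GGGCGG, the GC box, was found in the windows of 4 of the 9 (Igf1r, Igf2r, Igfbp2 and Igfbp7), against 35.7% of all windows. CACGTG was found for Igf2r and Igfbp2, against 7.15% of all windows. TGTTTAC, a FoxO core, and TTCNNNGAA, a Stat core, were found in the windows of 0 of the 9, against 3.65% and 8.3% of all windows. The Igf1 window starts from a RefSeq site that lies 2846 bases inside the table's gene.

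Per kilobase of exon, which allows genes to be set beside each other, Igfbp7 was the most abundant of the 9 in every group and the ranks below it depended on the cell type. In CD26- control NFs the means per kilobase were 383 ± 9.66 CPM for Igfbp7, 73.0 ± 8.95 for Igfbp2, 56.03 ± 9.25 for Igfbp6, 43.1 ± 3.31 for Igfbp5, 28.0 ± 1.76 for Igfbp4, 25.3 ± 2.34 for Igf2r, 7.85 ± 0.218 for Igf1r, 4.11 ± 0.297 for Igf1 and 3.50 ± 0.0869 for Igfbp3 (SD, n = 3). Among neighbours in that order, the libraries of Igfbp6 and Igfbp5 overlapped, as did those of Igfbp4 and Igf2r, and the other neighbours did not overlap. In CD26+ control NFs Igfbp4 came next to Igfbp7, with 313 ± 32.3 against 466 ± 11.2 CPM per kilobase, followed by Igfbp6 at 105 ± 5.12. Igfbp3, Igf2r, Igfbp5 and Igf1 then lay close together, at 16.0 ± 3.17, 15.1 ± 1.65, 11.5 ± 2.00 and 10.4 ± 1.92, where the libraries of Igfbp3 and Igf2r overlapped, as did those of Igfbp5 and Igf1, but those of Igf2r and Igfbp5 did not, while Igf1r stood at 8.30 ± 0.290 and Igfbp2 was lowest at 4.50 ± 0.620. In CD26- NFs with tumour CM the means (n = 6) were 320 ± 69.5 for Igfbp7, 94.2 ± 36.9 for Igfbp2, 82.1 ± 38.9 for Igfbp5, 55.6 ± 8.62 for Igfbp6, 27.7 ± 3.21 for Igf2r, 15.5 ± 7.46 for Igfbp4, 7.95 ± 0.630 for Igf1r, 6.88 ± 1.83 for Igfbp3 and 3.67 ± 1.74 for Igf1. In CD26+ NFs with tumour CM they were 498 ± 77.2 for Igfbp7, 86.8 ± 13.1 for Igfbp6, 54.7 ± 20.01 for Igfbp3, 50.3 ± 48.6 for Igfbp4, 23.4 ± 3.26 for Igf2r, 15.9 ± 10.4 for Igfbp5, 10.1 ± 0.417 for Igf1r, 5.88 ± 1.33 for Igfbp2 and 5.64 ± 1.34 for Igf1. With tumour CM most neighbours overlapped. The exceptions were Igfbp7 over Igfbp6 and Igf1r over Igfbp2 in CD26+ NFs, and Igfbp7 over Igfbp2 and Igfbp6 over Igf2r in CD26- NFs. The length used is the union of a gene's exons, which can be longer than any single transcript.

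**Figure D1:**
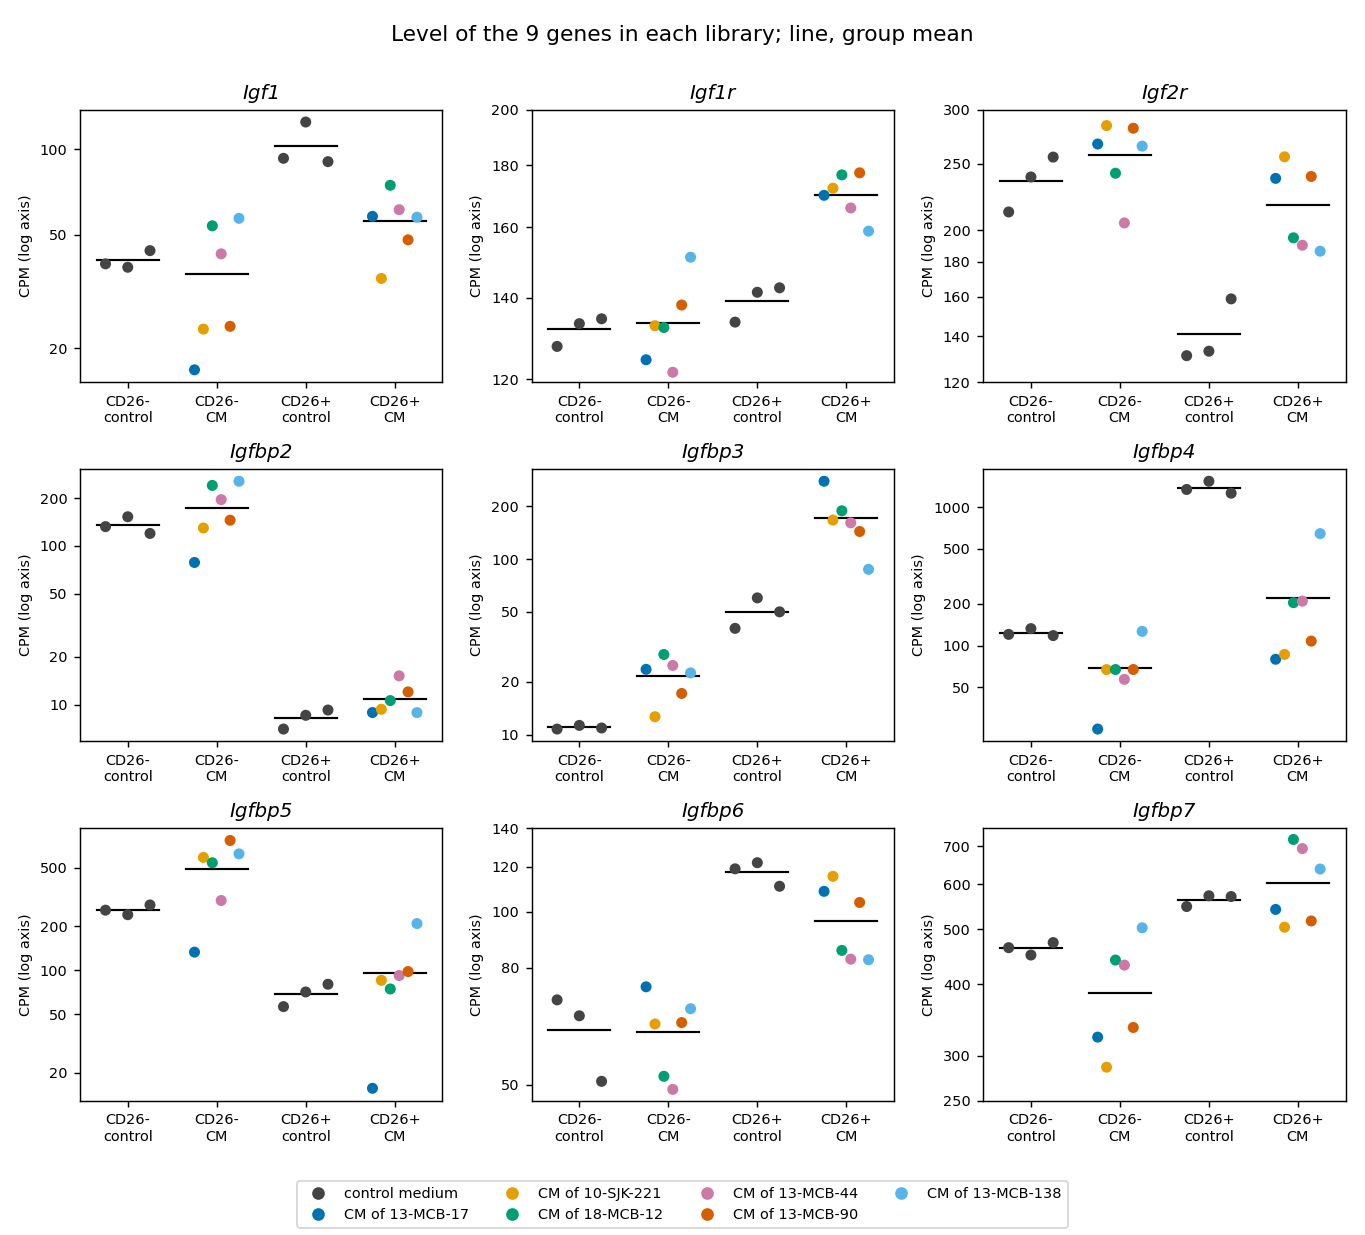
CPM on log axes (y) for each of the 9 genes in the 4 groups (x), 1 point per library, coloured by the line that gave the CM, with a black line at the group mean. In CD26+ NFs the Igfbp4 points in tumour CM (79.7 to 644 CPM) lie below all 3 control points (1263 to 1539.5 CPM), and the Igfbp3 points (87.5 to 278 CPM) lie above theirs (40.3 to 60.2 CPM).

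To determine which genes of the system respond to the medium of tumour cells, tumour CM was compared with control medium in each cell type. In CD26+ NFs 5 of the 9 genes passed a false discovery rate (FDR) of 0.05 in edgeR's quasi-likelihood test. Igf1r, Igf2r and Igfbp3 rose, and Igf1 and Igfbp4 fell. The same test called 15.2% of all tested genes higher and 13.4% lower. In CD26- NFs only Igfbp3 passed, against a background of 7.88% of tested genes higher and 7.28% lower. With an added limit of 2 on the log2 scale, Igfbp4 in CD26+ NFs was the 1 gene left there (2.01% of tested genes) and 0 of 9 remained in CD26- NFs (0.904%). The median log2 change of the 9 genes was 0.29 in CD26+ and 0.017 in CD26- NFs, beside -0.0040 over all tested genes in CD26+ and 0.0052 in CD26- NFs.

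Igf1, the ligand, was measured at 92.9, 124.6 and 90.5 CPM in the CD26+ control libraries. In tumour CM of replicates 13 to 18 it was 58.1, 35.2, 74.7, 61.4, 48.1 and 57.7 CPM. All 6 CM libraries lay below the 3 controls, and the mean went from 103 ± 19.0 to 55.9 ± 13.3 CPM (log2 change -0.88 ± 0.29 SE, FDR 0.0303). This call was lost without replicate 10, 11, 12, 14 or 17 (FDR up to 0.142), and without both libraries of line 10-SJK-221 (FDR 0.0539) or 13-MCB-90 (FDR 0.0535). In CD26- NFs Igf1 was 39.6, 38.5 and 44.1 CPM in control medium and 16.8, 23.4, 53.8, 42.9, 23.9 and 57.2 CPM in CM, with 2 libraries above and 3 below all controls (log2 change -0.17 ± 0.31, FDR 0.759).

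Igf1r, the receptor for that ligand, had the smallest spread of the 9 among CM libraries, relative to its mean. It was 133.7, 141.5 and 142.7 CPM in CD26+ control libraries, and 170.0, 172.3, 176.7, 166.0, 177.4 and 158.9 CPM in CM, again with no overlap. The rise was small, with a log2 change of 0.29 ± 0.06 (1.22-fold, FDR 0.00145). In CD26- NFs the mean was 132 ± 3.66 CPM in control medium and 133 ± 10.6 CPM in CM, and the groups overlapped (log2 change 0.017 ± 0.058, FDR 0.883).

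Igf2r, which clears IGF2 and sorts lysosomal enzymes, was 131.2, 133.2 and 158.8 CPM in CD26+ control libraries. In CM it reached 238.1, 256.0, 195.0, 190.2, 239.6 and 186.4 CPM, all above the controls (log2 change 0.63 ± 0.12, FDR 0.000867). In CD26- NFs, where the control level was already 236 ± 21.7 CPM, the CM mean was 258 ± 29.9 CPM (log2 change 0.13 ± 0.12, FDR 0.495). The antisense gene Airn overlaps Igf2r and had 15 to 70 counts in a library, against 1621 to 4051 for Igf2r. The strand setting of the counting is not given in the sources used here, so reads of the pair cannot be told apart where they overlap.

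Among the binding proteins, Igfbp4 showed the steepest change. IGFBP4 holds IGF back from its receptor until the protease PAPP-A cuts it. In CD26+ control libraries it was 1343, 1539.5 and 1263 CPM, and in CM it was 79.7, 86.4, 204, 209.7, 107.9 and 644 CPM for replicates 13 to 18. All 6 CM libraries lay below the controls by a wide margin, and replicate 18, with the CM of 13-MCB-138, kept the highest level. The mean fell from 1382 ± 142 to 222 ± 215 CPM (log2 change -2.64 ± 0.50, FDR 0.000907), and the call held under each of the 30 alternative settings, with FDR up to 0.0102. Without replicate 18 the log2 change was -3.33 ± 0.36. In CD26- NFs the control level was lower, at 121, 133 and 118 CPM, and the CM libraries had 24.98, 67.2, 67.2, 57.1, 67.3 and 127 CPM. Here 5 of 6 CM libraries were below all controls and 1 was among them, and the difference did not pass (log2 change -0.86 ± 0.52, FDR 0.286). Replicate 9, the highest, received the same CM as replicate 18, and without both libraries of that line the log2 change was -1.12 ± 0.32 (FDR 0.0207).

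Igfbp3 went the other way in both cell types. IGFBP3 is the main carrier of IGF in the blood and is also secreted by many stromal cells. In CD26+ NFs it was 40.3, 60.2 and 50.1 CPM in control medium and 278, 167, 189, 161, 144 and 87.5 CPM in CM (log2 change 1.77 ± 0.28, 3.41-fold, FDR 0.000179). In CD26- NFs it was 10.7, 11.3 and 10.9 CPM in control medium and 23.5, 12.6, 28.6, 24.8, 17.1 and 22.5 CPM in CM (log2 change 0.97 ± 0.31, FDR 0.0457). In each cell type all 6 CM libraries exceeded all 3 controls. The call in CD26- NFs was at the edge of the threshold and was lost on leaving out any 1 library other than replicate 5, 13 or 18 (FDR up to 0.148), while the log2 change stayed between 0.87 and 1.09. It was also lost with epithelial marker level as a covariate (log2 change 0.96 ± 0.35, FDR 0.11). The pericyte markers, lower in all CD26- CM libraries than in CD26- control libraries, moved with CM in these cells, and their part in the result was not tested.

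The other binding proteins did not pass the test for CM in either cell type. Igfbp5, which binds to the extracellular matrix, had 257, 239 and 279 CPM in CD26- control libraries and 133, 589, 542, 299, 769 and 624 CPM in CM, with 5 libraries above and 1 below all controls (log2 change 0.93 ± 0.53, FDR 0.248). The low library was replicate 4, with the CM of 13-MCB-17, and without both libraries of that line the log2 change was 1.13 ± 0.31 (FDR 0.027). In CD26+ NFs Igfbp5 was 56.4, 71.0 and 80.2 CPM in control medium and 15.6, 85.3, 74.5, 92.0, 97.9 and 208 CPM in CM (log2 change 0.46 ± 0.53, FDR 0.558). The lowest value again came with the CM of 13-MCB-17. Igfbp2, a binding protein common in epithelium, had a log2 change of 0.37 ± 0.26 in CD26- (FDR 0.362) and 0.38 ± 0.34 in CD26+ NFs (FDR 0.43). Igfbp6, which prefers IGF2 over IGF1, had a log2 change of -0.0099 ± 0.138 in CD26- (FDR 0.972) and -0.28 ± 0.13 in CD26+ NFs (FDR 0.126), with 5 of 6 CD26+ CM libraries below all controls. Igfbp7, which binds IGFs only weakly, had a log2 change of -0.26 ± 0.15 in CD26- (FDR 0.253) and 0.095 ± 0.15 in CD26+ NFs (FDR 0.68).

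**Figure D2:**
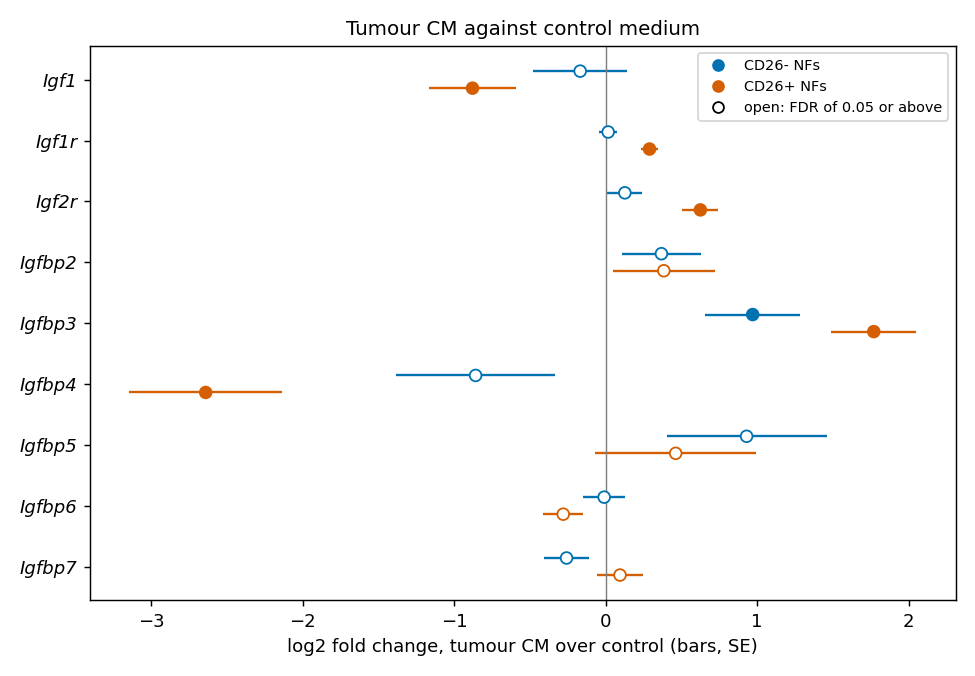
Log2 fold change of tumour CM over control medium (x, bars SE) for the 9 genes (y) in CD26- NFs (blue) and CD26+ NFs (orange), with filled points where FDR was below 0.05. In CD26+ NFs Igfbp4 lies at -2.64 and Igfbp3 at 1.77, and in CD26- NFs Igfbp3 at 0.97 is the 1 filled point.

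The response of the CD26+ NFs was then tested against that of the CD26- NFs in an interaction term. With 4 group terms, 0 of the 9 genes passed in edgeR's quasi-likelihood test, in which 4.53% of tested genes had a positive and 3.01% a negative difference (0.392% past the log2 limit). At an unadjusted p under 0.05 in that test there were 3 (Igf1r, Igf2r and Igfbp4). Many other genes reached that level too, since Igfbp4 ranked 2941 by p among the 14273 tested genes. DESeq2 called 2 (Igf1r, FDR 0.0168, and Igf2r, FDR 0.0345), where it called 12.9% of genes. Since each line's CM was given to both cell types, the line can also be fitted as a block, and with this pairing 4 of the 9 genes passed, where 17.6% of all tested genes did. The paired log2 differences, CD26+ minus CD26-, were 0.28 ± 0.08 for Igf1r (FDR 0.0262), 0.50 ± 0.11 for Igf2r (FDR 0.00762), -2.04 ± 0.32 for Igfbp4 (FDR 0.00128) and 0.37 ± 0.08 for Igfbp7 (FDR 0.0107). Without the block the same differences were 0.27 ± 0.08 (FDR 0.0509), 0.50 ± 0.16 (FDR 0.0674), -1.78 ± 0.76 (FDR 0.147) and 0.35 ± 0.21 (FDR 0.317). Without replicate 18 and with no block, Igf1r, Igf2r and Igfbp4 passed (FDR 0.0212, 0.0288 and 0.00367). The calls over all tested genes then rose as well, from 1075 to 2345. Without replicate 9 Igf1r passed (FDR 0.0145), with 1109 calls over all tested genes. For Igfbp3 the log2 difference of 0.80 ± 0.41 did not pass (FDR 0.235), and the paired value of 0.76 ± 0.33 did not either (FDR 0.121).

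The cell types also differed before any tumour CM was added. In control medium 7 of the 9 genes passed, against a background in which CD26+ NFs had 25% of tested genes higher and 25.4% lower. Igf1, Igfbp3, Igfbp4 and Igfbp6 were higher in CD26+ NFs, and Igf2r, Igfbp2 and Igfbp5 were lower. Past the log2 limit were 3 of the 9 (Igfbp2, Igfbp3 and Igfbp4), against 5.97% of tested genes. The median log2 difference was 0.285 over the 9 genes and 0.0064 over all tested genes.

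Igfbp2 showed the widest gap, with 132, 152 and 120 CPM in CD26- and 7.04, 8.59 and 9.28 CPM in CD26+ control libraries (log2 difference -4.01 ± 0.36, FDR 1.41e-07). In tumour CM it was 78.6, 129.6, 240.0, 195, 145 and 255 CPM in CD26- and 8.94, 9.38, 10.6, 15.2, 12.1 and 8.94 CPM in CD26+ NFs. The gap was thus about as large in CM, with a log2 difference of -4 ± 0.25 (FDR 1.33e-09). Igfbp5, its neighbour on chromosome 1, was 3.73-fold lower in CD26+ control libraries (log2 difference -1.90 ± 0.61, FDR 0.0155) and 5.17-fold lower in CM (log2 difference -2.37 ± 0.44, FDR 0.00016). Without replicate 10 the control difference of Igfbp5 no longer passed (FDR 0.0548).

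Igfbp4 was 11.2-fold higher in CD26+ than in CD26- NFs in control medium (log2 difference 3.48 ± 0.67, FDR 0.000298) and 3.25-fold higher in CM (log2 difference 1.70 ± 0.45, FDR 0.00336). Without replicate 18 the log2 difference in CM was 1.01 ± 0.31 (FDR 0.0094). For Igfbp3 the difference was 4.57-fold in control medium (log2 2.19 ± 0.34, FDR 4.19e-05) and 7.96-fold in CM (log2 2.99 ± 0.23, FDR 1.12e-08). Igfbp6 was 119, 122 and 111 CPM in CD26+ and 70.3, 65.9 and 50.7 CPM in CD26- control libraries (log2 difference 0.91 ± 0.16, FDR 0.000112). The ligand gene Igf1 was 2.52-fold higher in CD26+ control libraries (log2 1.33 ± 0.35, FDR 0.00426). The scavenger receptor Igf2r was lower there (log2 -0.74 ± 0.13, FDR 0.000175), and Igf1r did not pass the test (log2 0.079 ± 0.067, FDR 0.346). Igfbp7 did not pass either (log2 0.28 ± 0.17, FDR 0.182), although its 450.5 to 473.8 CPM in CD26- and 548.1 to 572.5 CPM in CD26+ control libraries did not overlap, and it passed when only these 2 groups were fitted (log2 0.28 ± 0.04, FDR 0.00017).

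In tumour CM all 9 genes passed between the cell types, where 29.3% of tested genes were higher and 29.3% lower in CD26+ NFs. Igf1, Igf1r, Igfbp3, Igfbp4, Igfbp6 and Igfbp7 were higher and Igf2r, Igfbp2 and Igfbp5 lower in CD26+ NFs, with 3 of 9 past the log2 limit (4.16% of tested genes). Igfbp7 was 323, 286, 441, 432, 336 and 503 CPM in CD26- and 542, 504, 719, 693, 517 and 638 CPM in CD26+ CM libraries, and the groups did not overlap (log2 difference 0.64 ± 0.12, FDR 0.000232). For Igf1r the difference was 0.35 ± 0.05 on the log2 scale (FDR 5.63e-06), also with no overlap. The calls of Igf1 (log2 0.62 ± 0.25, FDR 0.0414) and Igf2r (log2 -0.24 ± 0.09, FDR 0.0334) were near the threshold in the fit without pairing. There, Igf1 lost its call without replicate 1, 2, 3, 4, 5, 8, 13, 15, 16 or 18 (FDR up to 0.101) and with only the 2 groups compared (FDR 0.0815), and Igf2r without replicate 4, 5, 8, 9, 15, 16 or 18 (FDR up to 0.0746). Igf2r also lost it with no filter on low counts (FDR 0.0529). Without both libraries of a line, Igf1 also lost it for 13-MCB-17, 13-MCB-44 or 13-MCB-90 (FDR 0.0661 to 0.115) and Igf2r for 18-MCB-12, 13-MCB-90 or 13-MCB-138 (FDR 0.0525 to 0.108). With the line as block, the log2 difference was 0.70 ± 0.16 for Igf1 (FDR 0.00161) and -0.25 ± 0.06 for Igf2r (FDR 0.00285), Igf1 being higher and Igf2r lower in CD26+ NFs for 6 of 6 lines.

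Marker RNA moved with these cell type differences, fibroblast and adipocyte sums being higher and epithelial, immune and endothelial sums lower in every CD26+ than in every CD26- library. Apart from the epithelial level, their part in the results was not tested. As given above, the summed level of the 7 epithelial markers was 2370 CPM or more in every CD26- library and 1370 CPM or less in every CD26+ library. When the mean log2 level of the 7 markers was added to the fit as a covariate, 3 of the 9 genes passed in control medium (Igf2r, Igfbp2 and Igfbp3) and 2 in tumour CM (Igfbp2 and Igfbp3). The covariate lowered the calls over all tested genes as well, to 8.79% in control medium and 14.3% in tumour CM. No log2 difference changed sign, Igfbp4 having 2.99 ± 1.19 in control medium (FDR 0.127) and 1.27 ± 0.99 in CM (FDR 0.416). The summed levels of the cell types did not overlap, so the marker level and the cell type cannot be told apart in these libraries. For the CM effect in CD26+ NFs, the same 5 genes passed with the covariate, where 29.3% of tested genes did. The defining epithelial genes Epcam and Cdh1 had 134 to 208 and 270 to 422 CPM in CD26- CM libraries, and 33.4 to 84.5 and 59 to 127 CPM in CD26+ CM libraries.

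**Figure D3:**
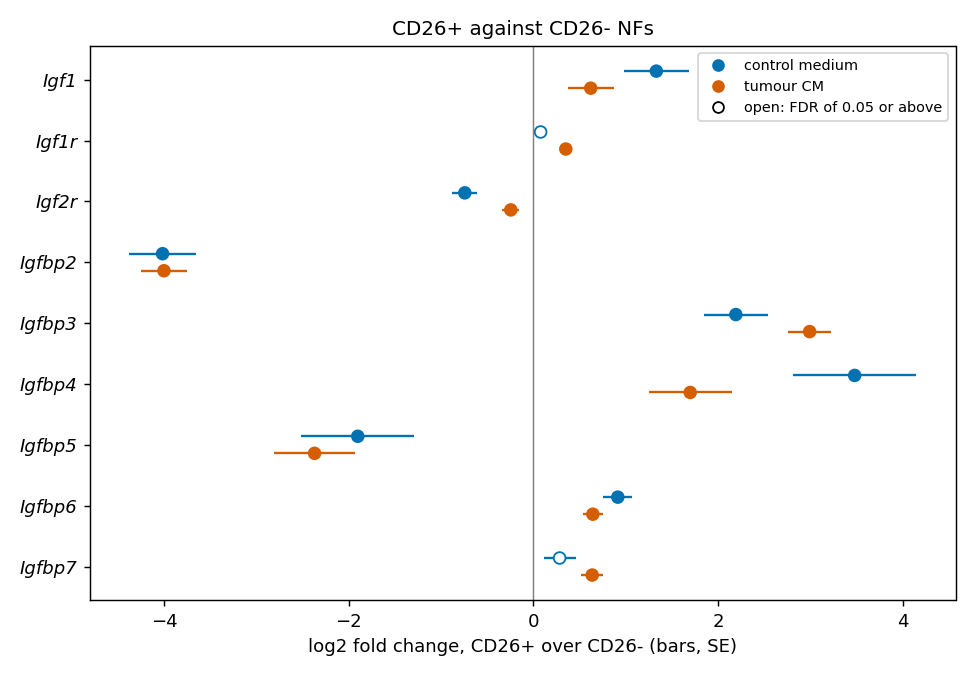
Log2 fold change of CD26+ over CD26- NFs (x, bars SE) for the 9 genes (y) in control medium (blue) and tumour CM (orange), with filled points where FDR was below 0.05. Igfbp2 lies at -4.01 and -4, Igfbp3 at 2.19 and 2.99, and Igfbp4 at 3.48 in control medium and 1.70 in tumour CM.

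Each line's CM was given to both cell types, which allows the 6 media to be compared with each other. In a fit with line terms shared by the cell types, 6 of the 9 genes differed among lines (Igf1, Igf2r, Igfbp2, Igfbp4, Igfbp5 and Igfbp7), where 13.8% of tested genes did. Igfbp5 spanned a fitted range of 2.93 on the log2 scale (FDR 0.000662) and Igfbp4 one of 2.74 (FDR 0.000764). For both, 13-MCB-17 gave the lowest level in both cell types. For Igfbp4 13-MCB-138 gave the highest level in both, and for Igfbp5 it gave the highest in CD26+ NFs and 13-MCB-90 the highest in CD26- NFs. Against the control mean of the same cell type, Igfbp4 changed on the log2 scale by -2.30 in CD26- and -4.11 in CD26+ NFs with the CM of 13-MCB-17, and by 0.036 and -1.09 with that of 13-MCB-138.

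Without line 13-MCB-17 the range of Igfbp5 was 1.14 (FDR 0.0819) and that of Igfbp2 0.71 (FDR 0.113), so these calls rested on that line. Igfbp4 still passed without 13-MCB-17 (range 1.94, FDR 0.00487) and without 13-MCB-138 (range 1.37, FDR 0.014), and the range was 2.07 without replicate 18 (FDR 0.00441). The departures of single lines from the mean of the 6 had the same sign in both cell types for 6 of 6 lines in Igfbp7, 5 of 6 in Igf1, Igf2r and Igfbp6, 4 of 6 in Igfbp5, and 3 of 6 in Igf1r, Igfbp2, Igfbp3 and Igfbp4.

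Igfbp7 had a fitted range of only 0.58 but the smallest FDR of the 9 (0.000495). Its level was above the mean of the 6 with the CM of 18-MCB-12, 13-MCB-44 and 13-MCB-138 in both cell types, and below it with the other 3. The protein-coding gene Polr2b overlaps Igfbp7 on the other strand, with 1202 to 1741 counts in a library against 4037 to 8740 for Igfbp7, so part of its reads could be shared if strand was not used in counting. Igf1 (range 1.148, FDR 0.034), Igf2r (range 0.45, FDR 0.0451) and Igfbp2 (range 1.23, FDR 0.0241) passed less firmly. The Igf1 call remained only without replicate 4, 9, 10, 11, 13 or 18, and that of Igf2r only without replicate 1, 9, 12 or 18, among the fits that left out 1 library. Without both libraries of a line, Igf1 lost its call for 10-SJK-221 (FDR 0.0988) or 18-MCB-12 (FDR 0.0874), and Igf2r for 10-SJK-221, 18-MCB-12, 13-MCB-44 or 13-MCB-90 (FDR 0.0676 to 0.204) and also with RLE scaling (FDR 0.0558). Igfbp2 lost its call without replicate 4, 5 or 16. With the 12 CM libraries alone, 3 genes passed (Igfbp4, Igfbp5 and Igfbp7), where 6.56% of tested genes did. Igf1r (FDR 0.648), Igfbp3 (FDR 0.113) and Igfbp6 (FDR 0.0765) did not pass. Igfbp6 did with DESeq2 (FDR 0.0404), without replicate 3, 9 or 18 (FDR 0.0277, 0.012 and 0.0224) and without line 13-MCB-138 (FDR 0.0164). Igfbp3 did without replicate 9 (FDR 0.00395) or line 13-MCB-138 (FDR 0.0408).

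**Figure D4:**
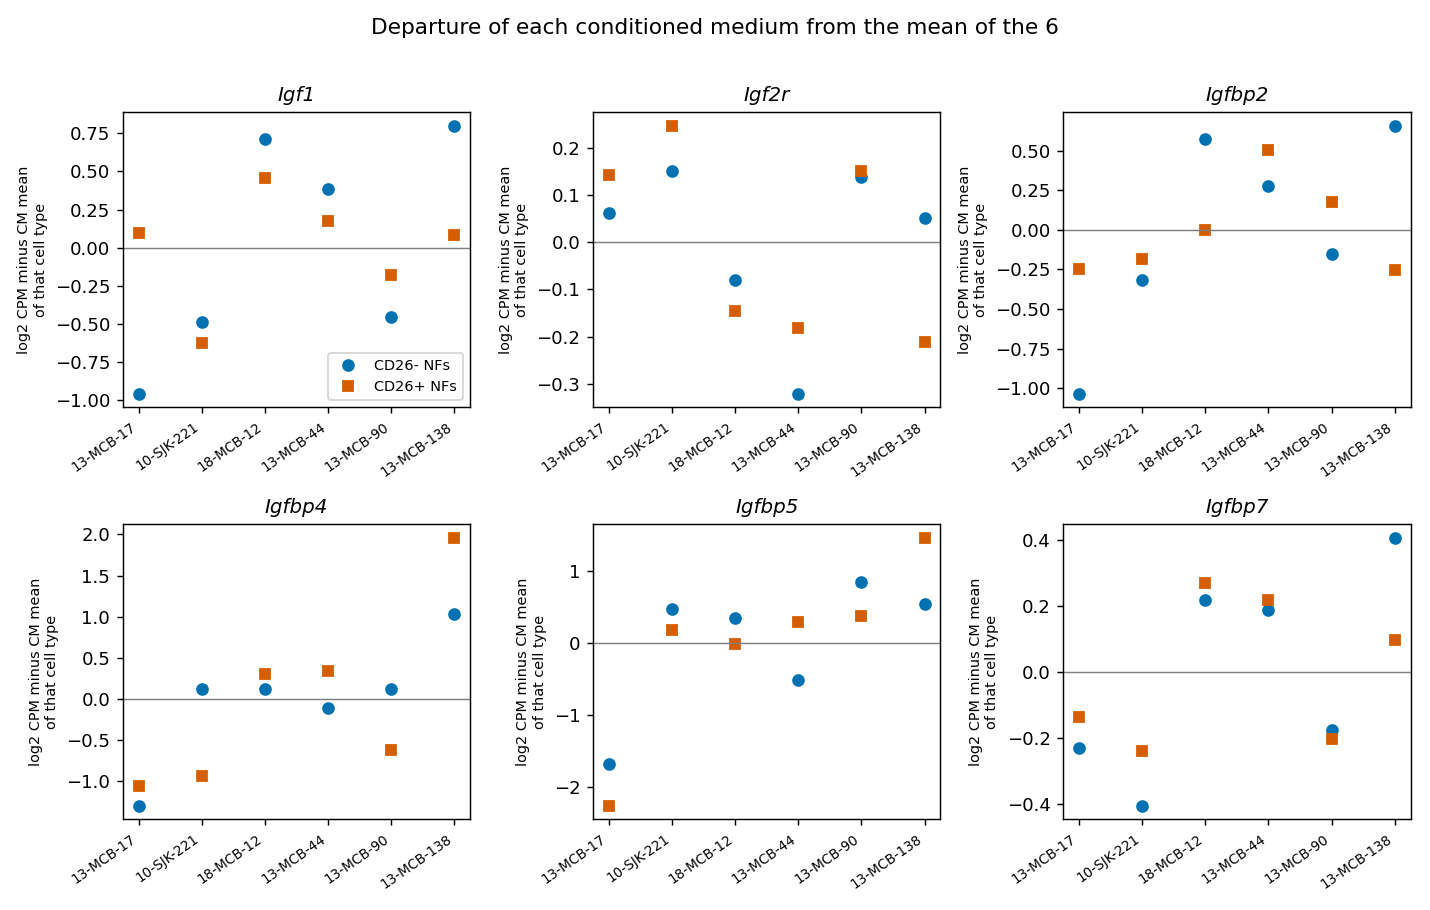
Log2 CPM minus the CM mean of the same cell type (y) for each line's CM (x), with circles for CD26- NFs and squares for CD26+ NFs, for the 6 genes that differed among lines. For Igfbp5 the CM of 13-MCB-17 stands at -1.68 and -2.27, and for Igfbp7 both symbols lie on the same side of 0 for all 6 lines.

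The make-up of binding protein RNA was described by each gene's share of the summed CPM per kilobase of the 6 Igfbp genes. In CD26+ NFs the share of Igfbp4 was 34.1% ± 1.99 (SD, n = 3) in control medium and 6.63% ± 5.69 (n = 6) in CM, where it ran from 2.74% to 17.9%. The share of Igfbp3 went from 1.74% ± 0.274 to 7.89% ± 3.27, and that of Igfbp7 from 50.9% ± 1.99 to 69.9% ± 3.94. None of these ranges overlapped between the media. The level of Igfbp7 itself did not pass for CM in these cells (log2 change 0.095 ± 0.15, FDR 0.68). The sum itself was 917 ± 44.0 CPM per kilobase in control medium and 711.5 ± 92.9 in CM. In CD26- NFs the sum was 586 ± 6.73 in control medium and 574 ± 122 in CM, and Igfbp5 took 7.35% ± 0.632 and 14.1% ± 6.64 of it, with overlapping ranges. The CD26- shares of Igfbp4 (4.61% to 5.11% in control medium, 1.37% to 3.8% in CM) and Igfbp3 (0.58% to 0.613%, and 0.838% to 1.83%) did not overlap between the media, moving the same way as in CD26+ NFs. Igfbp2 made up 12.4% ± 1.45 of the sum in CD26- but 0.491% ± 0.0680 in CD26+ control libraries. These shares are not tested, since they are made of the levels above.

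**Figure D5:**
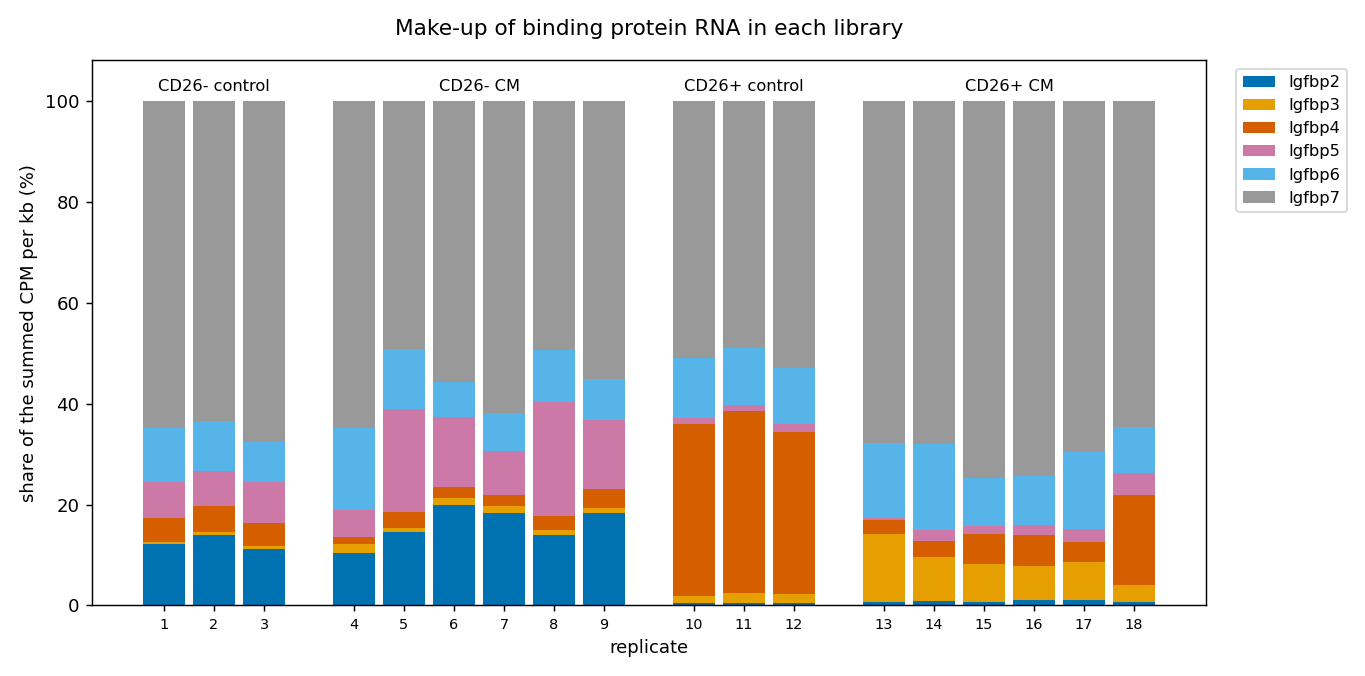
Share of the summed CPM per kilobase of the 6 binding protein genes (y, %) in each of the 18 libraries (x, replicate number), stacked by gene. The Igfbp4 band takes 32.1% to 36% in CD26+ control libraries and 2.74% to 17.9% in CD26+ CM libraries.

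Genes that cut or protect binding proteins were examined as a list of 8 chosen by name, of which 7 could be tested. In CD26+ NFs 4 of the 7 passed for CM, with 2 higher and 2 lower, and in CD26- NFs 3 passed, with 1 higher and 2 lower. For this and the lists that follow, the shares over all tested genes were 15.2% higher and 13.4% lower in CD26+ NFs, and 7.88% higher and 7.28% lower in CD26- NFs. The CD26- calls were unstable, going over all tested genes from 2164 to 1099, 1401 and 825 without control replicate 1, 2 and 3, and to 965 with the epithelial covariate. The proteolysis count in CD26- NFs was then 1 in each of these fits. Pappa, which encodes the protease PAPP-A that cuts IGFBP4, fell in CD26+ NFs from 158 ± 15.1 to 34.1 ± 17.6 CPM (log2 change -2.22 ± 0.29, FDR 2.49e-05) and in CD26- NFs from 39.5 ± 2.60 to 19.2 ± 5.51 CPM (log2 change -1.04 ± 0.31, FDR 0.0298). Stc1, which encodes a stanniocalcin, a kind of protein that inhibits PAPP-A, rose in CD26+ NFs from 101 ± 8.62 to 245 ± 63.5 CPM (log2 change 1.27 ± 0.20, FDR 0.000161) and in CD26- NFs (log2 change 0.74 ± 0.20, FDR 0.0185). Stc2 and Pappa2, named after their values were seen, were the other calls in CD26+ NFs. Stc2 rose from 7.57 ± 1.21 to 46.9 ± 29.2 CPM (FDR 0.000763), and Pappa2 fell from the low level of 1.42 ± 0.255 CPM to 0.358 ± 0.308 CPM (FDR 0.00296). Htra1, a secreted serine protease that can cut binding proteins, fell in CD26- NFs (log2 change -0.49 ± 0.11, FDR 0.00648). The median log2 change of the 7 was 0.059 in CD26+ and -0.43 in CD26- NFs.

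Of 11 genes on a list of other family genes only 4 could be tested. These were Insr and the RNA-binding protein genes Igf2bp1, Igf2bp2 and Igf2bp3, which share the name but not the family. Igf2, the second ligand, had 1 to 11 counts in a library, Igfbp1 0 to 1, Igfals, the third partner of the IGFBP3 complex, 1 to 10, and the insulin genes Ins1 and Ins2 had 0. In CD26+ NFs 3 of the 4 rose with CM (Insr, Igf2bp1 and Igf2bp2) and 0 fell. In CD26- NFs 0 passed, the log2 changes there ranging from 0.073 for Insr to 1.16 for Igf2bp3. Igf2bp2, an RNA-binding protein named for the Igf2 transcript, rose in CD26+ NFs from 55.7 to 129 CPM (log2 change 1.21 ± 0.20, FDR 0.000251).

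Upstream of Igf1 stand growth hormone and Stat5, which drive its transcription in many tissues. Of the 9 genes on that list, CM raised 3 and lowered 1 in CD26+ NFs and raised 3 in CD26- NFs. Stat5a rose in both, from 25.9 to 64.9 CPM in CD26+ (log2 change 1.32 ± 0.13, FDR 2.75e-06) and from 12.7 to 27.0 CPM in CD26- NFs (log2 change 1.09 ± 0.14, FDR 0.000236). Socs2, a feedback inhibitor that Stat5 induces, fell in CD26+ NFs (log2 change -0.63 ± 0.09, FDR 9.02e-05).

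Downstream of the receptors, CM raised 11 of 30 tested signalling genes and lowered 3 in CD26+ NFs (15.2% and 13.4% of all tested genes), and raised 4 and lowered 4 among CD26- NFs (7.88% and 7.28%). The 8 calls in CD26- NFs became 3, 4 and 2 without control replicate 1, 2 and 3, and 3 with the epithelial covariate, whereas the 14 in CD26+ NFs were 10 to 16 when leaving out 1 library. The smallest p among those raised in CD26+ NFs belonged to Grb14, an adaptor that inhibits the insulin receptor (log2 change 1.69 ± 0.21, FDR 1.88e-05). Akt1, a kinase of the pathway, fell slightly there (log2 change -0.29 ± 0.05, FDR 0.00077). In CD26- NFs Grb10, a related adaptor, rose from 99.2 to 204 CPM (log2 change 1.04 ± 0.22, FDR 0.00492) and Gab1, a docking protein, fell (log2 change -0.35 ± 0.09, FDR 0.0137). FoxO factors are switched off by Akt, and of 14 tested FoxO genes and targets CM lowered 7 and raised 0 in CD26- NFs (7.28% and 7.88% of all tested genes), and lowered 7 and raised 2 in CD26+ NFs (13.4% and 15.2%). Leaving out 1 library gave 5 to 9 calls in CD26- and 8 to 10 in CD26+ NFs. The median log2 change of this list was -0.34 in CD26- and -0.19 in CD26+ NFs. Sesn3, a stress-induced FoxO target, fell in CD26- NFs from 140 to 83.4 CPM (log2 change -0.75 ± 0.12, FDR 0.000932). Sesn1, its relative, fell in CD26+ NFs (log2 change -0.84 ± 0.14, FDR 0.000361), where Foxo3 rose (log2 change 0.65 ± 0.10, FDR 0.000135).

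Of 7 tested genes that share the IGF-binding domain but lie outside the family, CM raised 2 and lowered 1 in CD26+ NFs, and 0 passed in CD26- NFs, where the log2 changes had a median of -0.15. Ccn1, a matrix-associated signalling protein, rose in CD26+ NFs from 402 to 794 CPM (log2 change 0.98 ± 0.14, FDR 7.47e-05) and Ccn5 fell from 120 to 55.8 CPM (log2 change -1.11 ± 0.33, FDR 0.0171). Of 6 tested genes for partners of the binding proteins, 1 fell in each cell type. Tmem219, a receptor described for IGFBP3, fell in CD26+ NFs (log2 change -0.38 ± 0.11, FDR 0.013) and Itgb1, an integrin subunit, in CD26- NFs (log2 change -0.31 ± 0.07, FDR 0.00791). Of 7 genes for mannose 6-phosphate sorting, the route served by IGF2R, CM raised 2 in CD26+ NFs and raised 1 and lowered 1 in CD26- NFs. Ctsb, a lysosomal protease, rose in both (log2 change 0.52 ± 0.10 in CD26+, FDR 0.00111, and 0.34 ± 0.10 in CD26-, FDR 0.0323), while Ctsd, another, fell in CD26- NFs (log2 change -0.46 ± 0.11, FDR 0.0109).

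In control medium the lists also held differences between the cell types, given as CD26+ over CD26-. Of the proteolysis genes 4 were higher and 1 lower in CD26+ NFs, of the signalling genes 9 and 9, of the FoxO list 3 and 6, of the growth hormone list 5 and 2, of the partner genes 3 and 2, of the genes with the binding domain 2 and 3, of the sorting genes 3 and 2, and of the other family genes 0 and 0, beside 25% and 25.4% of all tested genes. Pappa was higher in CD26+ NFs (log2 difference 2.00 ± 0.35, FDR 0.000141), as Igfbp4 was, and Htra1 lower (log2 difference -1.14 ± 0.13, FDR 1.66e-06). Pik3cb, a catalytic subunit of phosphatidylinositol 3-kinase, was lower (log2 difference -1.97 ± 0.17, FDR 7.43e-08), and Socs3, a feedback inhibitor of cytokine signalling, was higher (log2 difference 1.63 ± 0.12, FDR 1.65e-08). Among the others with the smallest p of their list, Shc1 (0.41), Ccn5 (1.296), Tmem219 (0.53), Sesn1 (1.21) and Ctsb (0.52) were higher and Cish (-0.67), Crim1 (-1.44), Trp53inp1 (-1.74) and Ctsd (-0.90) lower in CD26+ NFs on the log2 scale. Cd93, a receptor described for IGFBP7, was at 15.0 CPM in CD26- and 1.89 CPM in CD26+ control libraries (log2 difference -2.99 ± 0.19, FDR 4.33e-09). With the line as block, the pairing also raised the number of list genes whose CM effect differed between the cell types, from 5 to 12 of 30 signalling genes, from 1 to 4 of 7 proteolysis genes and from 0 to 6 of 7 genes with the binding domain. Over all tested genes the block raised the calls from 1075 to 2516. With the epithelial covariate, the counts between cell types in control medium went from 18 to 3 for signalling and from 5 to 1 for proteolysis, and over all tested genes from 7186 to 1255.

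For each of the 9 genes the genes with the most similar pattern were sought by the root mean square difference of centred log2 CPM over the 18 libraries. Igf2r was closest to Hivep2 (difference 0.0728, against an SD of 0.343 for Igf2r itself) and Igfbp6 to Atf5 (0.108 against 0.437). Igfbp7 was closest to Gnptab (0.126 against 0.359), Igfbp2 to Tnfsf15 (0.286 against 2.07) and Igfbp3 to the complement gene C1ra (0.264 against 1.58). Igf1 was closest to P4ha3, a collagen prolyl hydroxylase subunit (0.286 against 0.733), and Igf1r to Gm38394 (0.0622 against 0.182). Igfbp4 and Igfbp5 had the largest differences from their nearest genes, Sncaip (0.524 against 1.71) and Hsd3b6 (0.674 against 1.48), without scaling by SD. The second nearest were Itprip (0.132) for Igf2r, Aldh18a1 (0.135) for Igfbp6, Ctsh (0.13) for Igfbp7, Ppbp (0.467) for Igfbp2, C1rb (0.356) for Igfbp3, Adamts12 (0.297) for Igf1, Rnf149 (0.0689) for Igf1r, Col8a2 (0.539) for Igfbp4 and Itga8 (0.707) for Igfbp5. These libraries share groups and lines, so such likeness is a description only.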

How the data were processed

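Raw counts per gene were deposited by the authors without normalization. The submitters' processing notes name HISAT2 2.1.0, HTSeq and GRCm38, and the annotation release and strand setting are not given in the sources used here. Libraries were made from polyadenylated RNA with a stranded kit. The deposited table held 55486 genes and 1 row without a gene (0 counts, left out), and its 18 columns were mapped to samples by title. No library was left out, and no batch is given. Replicates differed beyond counting error (lowest chi-square per degree of freedom 3.03).

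Genes were filtered with filterByExpr, scaled by TMM and tested in edgeR 4.0.16 (R 4.3.3) with a quasi-likelihood fit of 4 group terms over all 18 libraries (14 residual degrees of freedom). Line effects were tested with 5 further terms that sum to 0 over the 6 lines. FDR is the Benjamini-Hochberg value over all 14273 tested genes, with a threshold of 0.05. The deposited counts were converted to CPM with TMM-adjusted library sizes, and a prior count of 2 was used for log2 CPM. Errors of log2 changes are SE, derived from the F statistic, and those of levels are SD.

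The 9 genes are always named. From each list, the gene with the smallest p called higher and the one called lower are named for the CM effects, the control comparison and the difference in CM effect, among those whose mean reached 5 CPM in any group. For the likeness of patterns, the 2 nearest genes were sought. The genes and lists were chosen with earlier results of these data known. Pairing by line comes from the labels of the media. Deviations from the group means of libraries with the same line correlated in all 6 pairs (0.247 to 0.406). The highest correlation of each CD26- library with a CD26+ library of another line was 0.0409 to 0.242. It lay below the same-line value for every line, though closely for some (0.242 against 0.306 for 13-MCB-17), so the line was used as a block.

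Alternatives were RLE and upper-quartile scaling, no filter, DESeq2 1.42.0, a log2 limit of 2, the line block, the compared libraries alone, an epithelial covariate, each library left out and, chosen after seeing the data, each line left out. Columns of other samples: 0.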

Additional observations from a re-analysis of the deposited data

Results flagged for a closer look

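Igfbp4 in replicate 18, the CD26+ NFs with the CM of 13-MCB-138, was 644 CPM, while the next of its 6 CM libraries had 210 CPM. The gap took 0.77 of the group's range, above the critical value for 6 values. The same library held an Igfbp4 share of 17.9% of the binding protein sum, against 6.17% for the next. Of 30 groups of values examined, 2 had such a library, both from this gene, and chance alone marks about 1 in 20 groups. The CD26- library with the same CM, replicate 9, also had the highest Igfbp4 level of its group.

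The CM effect differed between the cell types in edgeR's interaction test for 5 of 30 signalling genes, 4 of 14 FoxO genes and targets, 2 of 9 growth hormone genes, 1 of 7 proteolysis genes and 1 of 7 sorting genes. It differed for 0 of 4 on the list of other family genes, 0 of 7 genes with the binding domain and 0 of 6 partner genes. Over all tested genes 4.53% had a positive and 3.01% a negative difference. The 6 named by the rule for lists are given as log2 of CD26+ minus CD26-. Htra1 had a difference of 0.68 (FDR 0.0163), going from 225 to 160 CPM in CD26- and from 102.4 to 117 CPM in CD26+ NFs. Grb10 had -1.18 (FDR 0.0232), with 99.2 to 204 CPM in CD26- and 324 to 293 CPM in CD26+ NFs. Foxo3 had 0.63 (FDR 0.0114), Pik3r1 0.45 (FDR 0.0103), M6pr 0.43 (FDR 0.00642) and Socs3 -0.53 (FDR 0.0317).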

How the results depend on the processing

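The 9 genes gave 54 values over the 6 comparisons, 28 of them called. Under alternatives, 0 of 843 called values changed sign, and 11 of the 28 calls held throughout. The 843 include the fitted ranges of the 6 genes called among lines, which are never negative and so could not change sign. Another scaling moved the median of all genes by at most 0.033. The number of genes passing changed as follows. For the CM effect in CD26- NFs (1 of 9) it was 0 with the log2 limit, 0 with the epithelial covariate, 0 without line 18-MCB-12, 13-MCB-44 or 13-MCB-90, 2 without 13-MCB-17 or 13-MCB-138, and 0 to 1 when leaving out 1 library. Over all tested genes the main fit called 2164, and the fits without these lines 1577, 2893, 1487, 1763 and 2890 in that order. For the CM effect in CD26+ NFs (5) it was 1 with the log2 limit and 4 to 5 when leaving out 1 library. Between the cell types it was 3 in control medium (7) and 3 in tumour CM (9) with the log2 limit, 3 and 2 with the epithelial covariate, 8 and 8 with only the 2 groups compared (Igfbp7 gained and Igf1 lost a call), and 6 to 7 and 7 to 9 when leaving out 1 library. With no filter on low counts it was 8 in tumour CM, where Igf2r lost its call. For the difference in CM effect (0) it was 1 with RLE scaling, 2 with DESeq2, 4 with the line as replicate block, 3 without 13-MCB-138, and 0 to 3 when leaving out 1 library. Over all tested genes the main fit called 1075, RLE scaling 1071, DESeq2 1588, the line block 2516 and the fit without 13-MCB-138 2412. The block was otherwise fitted only between the cell types in tumour CM, where it changed no call. For the lines (6) it was 3 with the 12 CM libraries alone and 3 to 8 when leaving out 1 library. Without the filter 8 passed for the lines, but that fit gave every gene the spread of the trend (prior degrees of freedom Inf against 5.29), so its FDRs are not comparable. Of the counts of called genes in the lists, 222 moved by more than 1.5 times under an alternative and 1218 did not.

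Signs turned only for values near 0. The difference in CM effect of Igfbp2 (0.016) was -0.014 with upper-quartile scaling, -0.068 with the epithelial covariate, -0.082, -0.016, -0.071 and -0.072 without 13-MCB-17, 10-SJK-221, 13-MCB-44 and 13-MCB-90, and -0.13 to 0.16 when leaving out 1 library. The CM effect in CD26- NFs was 0.039 and 0.048 without 18-MCB-12 and 13-MCB-44, and -0.14 to 0.090 when leaving out 1 library, for Igfbp6 (-0.0099). For Igf1r (0.017) it was -0.022 without 13-MCB-138 and -0.022 to 0.042 when leaving out 1 library. The cause was not tested. The lowest count of the 9 genes was 87, for Igfbp2 in CD26+ NFs, so counting error adds to the spread of Igfbp2 there and of Igfbp3 in CD26- NFs.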
